A study of Mus musculus with 19 samples.

Results

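The genes described are 10 regulators of the hair follicle, chosen by name from textbook roles out of 50686 genes measured in mouse skin. They form a pair of sets. The 5 stem cell genes are Lgr5, Cd34, Lhx2, Sox9 and Nfatc1, and the 5 growth phase genes are Shh, Lef1, Msx2, Hoxc13 and Foxn1. Skin was taken 42 days after bone marrow transplantation (BMT) from 19 female BALB/c mice, which had been irradiated and injected with T cell-depleted bone marrow and splenocytes of male donors, and its mRNA was sequenced. Donors and recipients were 8 to 12 weeks old. B10.D2 donor cells, which differ in minor histocompatibility antigens, give Scl-cGVHD, a sclerodermatous form of chronic graft-versus-host disease, and BALB/c donor cells give the syngeneic control. From day 7 to day 35 the mice received an antibody that neutralises the chemokine CX3CL1 (anti-CX3CL1 mAb) or control IgG, and the comparisons ask what the disease and the antibody did to skin RNA. The groups were Scl-cGVHD with control IgG (n = 3), Scl-cGVHD with 0.5 mg mAb (n = 3), Scl-cGVHD with 1 mg mAb (n = 5), syngeneic with mAb (n = 5) and syngeneic with control IgG (n = 3). The labels give no dose for the syngeneic mAb mice. All 19 mice, controls included, had been irradiated and had received a graft, so none shows untreated skin, and each library came from 1 mouse.

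A hair follicle passes through growth (anagen), regression (catagen) and rest (telogen), and renews itself from stem cells in the bulge and the hair germ below it. Growth starts when WNT signals from the dermal papilla outweigh BMP signals and the germ divides. The new matrix then makes Shh, and its daughter cells switch on homeobox and forkhead factors that drive the keratins of the hair shaft and the inner root sheath. Genes of the stem cell set are thus carried by follicles at rest as well as in growth, while those of the growth phase set are carried mainly by growing follicles.

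Levels are given in TPM, a transcript abundance that corrects for gene length and scales each mouse to the same total. Tests used limma on log2(TPM + 1), a scale on which the change of a low gene is understated. Testing was limited to the 16350 genes that reached 1 TPM in 3 or more mice, and a gene was called if its adjusted p was under 0.05. All 10 genes were tested, but Shh reached 1 TPM only in syngeneic mice ID_1528, ID_1533 and ID_1534, so it passed only through the group in which it is high. The libraries held 20325491 to 35005382 uniquely mapped read pairs (median 26198028), and these depths are not tied to mouse numbers. Where a value is given for each mouse of a group, the order is that of the mouse numbers, which are ID_1535, ID_1537 and ID_1538 for Scl-cGVHD IgG, ID_1539 to ID_1541 for 0.5 mg, ID_1542 to ID_1546 for 1 mg, ID_1530 to ID_1534 for syngeneic mAb and ID_1527 to ID_1529 for syngeneic IgG. Gene positions are those of GRCm38.

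Some mice stood apart from the rest of their group. In syngeneic mAb mice ID_1533 and ID_1534 and syngeneic IgG mouse ID_1528, the summed level of 7 inner root sheath keratins was 15433, 10169.6 and 2302 TPM, against at most 317 TPM in any other mouse. Scl-cGVHD mouse ID_1540, given 0.5 mg mAb, had 7742 TPM of 10 dermal fibroblast genes, against at most 2560 TPM in the other Scl-cGVHD mice. Over all genes, Scl-cGVHD values were shifted by a median of -0.33 on the log2 scale against syngeneic values, in the comparison of the IgG groups as in the mean of all groups. Median-ratio scaling removed this shift (0.01 for the IgG groups). With it, 47.8% of the calls between the IgG groups were decreases, against 72.3% without it.

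Promoters are printed for the growth phase genes with an entry among RefSeq promoter sequences. These genes were all highest in the same syngeneic mice (ID_1528, ID_1533 and ID_1534). The promoter of Lhx2, the stem cell gene with the largest log2 difference between the models, is printed too. Of the 10 genes, 5 had an entry (Cd34, Lhx2, Lef1, Msx2 and Foxn1). Each sequence runs 5′ to 3′ on the strand of the gene, spans 250 bases before to 50 bases after the start site in RefSeq and comes from GRCm38.p6, not from the strain studied. That start site can differ from the gene start in the Ensembl annotation of the files: it lies 148 bases before it for Lef1, 50 bases before it for Foxn1 and 294 bases past it for Msx2, and matches it for Lhx2. RefSeq lists 4 promoters for Lef1 and 2 for Lhx2, of which the one nearest the gene start in the files is printed. Msx2 lies at chr13:53472731-53473030 (minus strand), Lef1 at chr3:131110073-131110372 (plus), Foxn1 at chr11:78386559-78386858 (minus) and Lhx2 at chr2:38339031-38339330 (plus). Capitals mark GACGC or its reverse complement, the core letters bound by Foxn1.
Msx2: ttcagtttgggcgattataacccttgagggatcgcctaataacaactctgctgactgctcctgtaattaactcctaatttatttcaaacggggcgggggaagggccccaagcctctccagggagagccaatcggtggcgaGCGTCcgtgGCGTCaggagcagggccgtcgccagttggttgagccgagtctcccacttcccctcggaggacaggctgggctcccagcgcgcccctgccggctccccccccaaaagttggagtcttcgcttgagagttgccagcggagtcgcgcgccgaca
Lef1: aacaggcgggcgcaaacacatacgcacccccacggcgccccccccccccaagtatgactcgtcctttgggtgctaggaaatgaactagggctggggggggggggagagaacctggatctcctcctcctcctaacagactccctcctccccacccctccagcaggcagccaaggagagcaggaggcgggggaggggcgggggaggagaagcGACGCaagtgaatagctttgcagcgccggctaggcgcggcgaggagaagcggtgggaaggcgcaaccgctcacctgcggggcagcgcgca
Foxn1: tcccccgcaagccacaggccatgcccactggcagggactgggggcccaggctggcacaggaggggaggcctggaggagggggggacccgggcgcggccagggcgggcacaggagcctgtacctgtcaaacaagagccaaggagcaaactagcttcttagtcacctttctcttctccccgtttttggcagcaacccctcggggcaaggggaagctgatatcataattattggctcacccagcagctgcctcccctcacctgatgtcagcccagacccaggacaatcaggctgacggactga
Lhx2: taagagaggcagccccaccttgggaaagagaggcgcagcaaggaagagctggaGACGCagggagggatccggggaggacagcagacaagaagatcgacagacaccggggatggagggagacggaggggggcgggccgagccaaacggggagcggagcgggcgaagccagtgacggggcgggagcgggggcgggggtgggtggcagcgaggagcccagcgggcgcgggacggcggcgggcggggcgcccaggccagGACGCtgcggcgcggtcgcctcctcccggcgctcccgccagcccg

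GACGC was searched on both strands together with TATAAA and with CTTTGA and CTTTGT, letters bound by Lef1 and its relatives. The promoter of Msx2 held 2 matches to GACGC, both on the reverse strand, and that of Lhx2 held 2 on the forward strand. Those of Lef1 and Cd34 held 1 each and that of Foxn1 held 0. No match to the other motifs was found in the printed windows or in that of Cd34. Of the entries not printed, the Lef1 promoter 45823 bases past the gene start held 2 matches to CTTTGA, 1 to CTTTGT and 1 to TATAAA, and the others held none of these letters. Among 32851 RefSeq promoters of this length, GACGC stood in 27.2%, CTTTGA or CTTTGT in 31.2% and TATAAA in 13.6%. A match describes letters and is no evidence of binding.

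Levels of the stem cell genes were mostly lower in Scl-cGVHD mice than in syngeneic mice, with overlap between the models for Sox9, Cd34 and Nfatc1. Lgr5, a receptor for R-spondins that marks stem cells of the lower bulge and germ (chr10:115450311-115587780, minus strand), had 0.33, 0.07 and 0.2 TPM in Scl-cGVHD IgG mice, 0.67, 3.82 and 1.25 TPM at 0.5 mg, and 0.71, 1.6, 0.31, 1.29 and 0.04 TPM at 1 mg. Syngeneic mAb mice had 5.36, 4.7, 3.94, 16.7 and 9.56 TPM of Lgr5, and syngeneic IgG mice 5.15, 8.21 and 3.97 TPM. Each of the 11 Scl-cGVHD mice lay below each of the 8 syngeneic mice, although the highest of them, ID_1540 with 3.82 TPM, was close to the lowest syngeneic value of 3.94 TPM. Lhx2, a homeodomain factor that maintains the bulge (chr2:38339281-38369733, plus strand), was 1.26, listed at 0, and 0.28 TPM in Scl-cGVHD IgG mice, 0.98, 17.8 and 9.9 TPM at 0.5 mg, and 4.69, 9.91, 1.43, 2.56 and 0.3 TPM at 1 mg. For this gene syngeneic mAb mice gave 19.4, 19.1, 22.8, 43.2 and 42.2 TPM and syngeneic IgG mice 20.1, 32.6 and 18.6 TPM. Again no Scl-cGVHD mouse reached the lowest syngeneic mouse. Such a full separation, with all Scl-cGVHD mice lower, was met by these 2 of the 10 genes and by 5.63% of the genes tested.

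Sox9, a factor of the outer root sheath and bulge (chr11:112782224-112787760, plus strand), had 3.59, 3.25 and 3.45 TPM in Scl-cGVHD IgG mice, a narrow range, and 5.7, 14.7 and 12.4 TPM at 0.5 mg. At 1 mg it had 12.4, 11.99, 5.02, 5.58 and 3.75 TPM. Syngeneic mAb mice held 18.8, 26.6, 21.2, 40.5 and 22.4 TPM and syngeneic IgG mice 12.9, 23.0 and 13.8 TPM. Only ID_1540 passed the lowest syngeneic mouse. Cd34, a surface glycoprotein of bulge cells that fibroblasts and endothelial cells also carry (chr1:194938819-194961279, plus strand), had 35.5, 68.8 and 46.0 TPM in Scl-cGVHD IgG mice, 52.2, 288 and 90.9 TPM at 0.5 mg, and 92.1, 94.5, 53.5, 52.0 and 24.4 TPM at 1 mg. In syngeneic mAb mice Cd34 was 358, 320.2, 302, 128 and 159.6 TPM, and in syngeneic IgG mice 304, 259.6 and 308 TPM. Its single overlap between the models was again ID_1540, which lay above ID_1533, ID_1534 and ID_1528. Nfatc1, a calcium-dependent factor that keeps bulge cells at rest (chr18:80606205-80713071, minus strand), had 11.4, 11.8 and 10.4 TPM in Scl-cGVHD IgG mice, 6.08, 26.3 and 19.8 TPM at 0.5 mg, and 20.1, 25.5, 12.5, 12.4 and 8.25 TPM at 1 mg. Its syngeneic values were 33.0, 28.2, 25.7, 13.2 and 14.3 TPM with mAb and 24.8, 21.3 and 23.8 TPM with IgG, so that the models overlapped more for Nfatc1 than for the other stem cell genes.

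**Figure D1:**
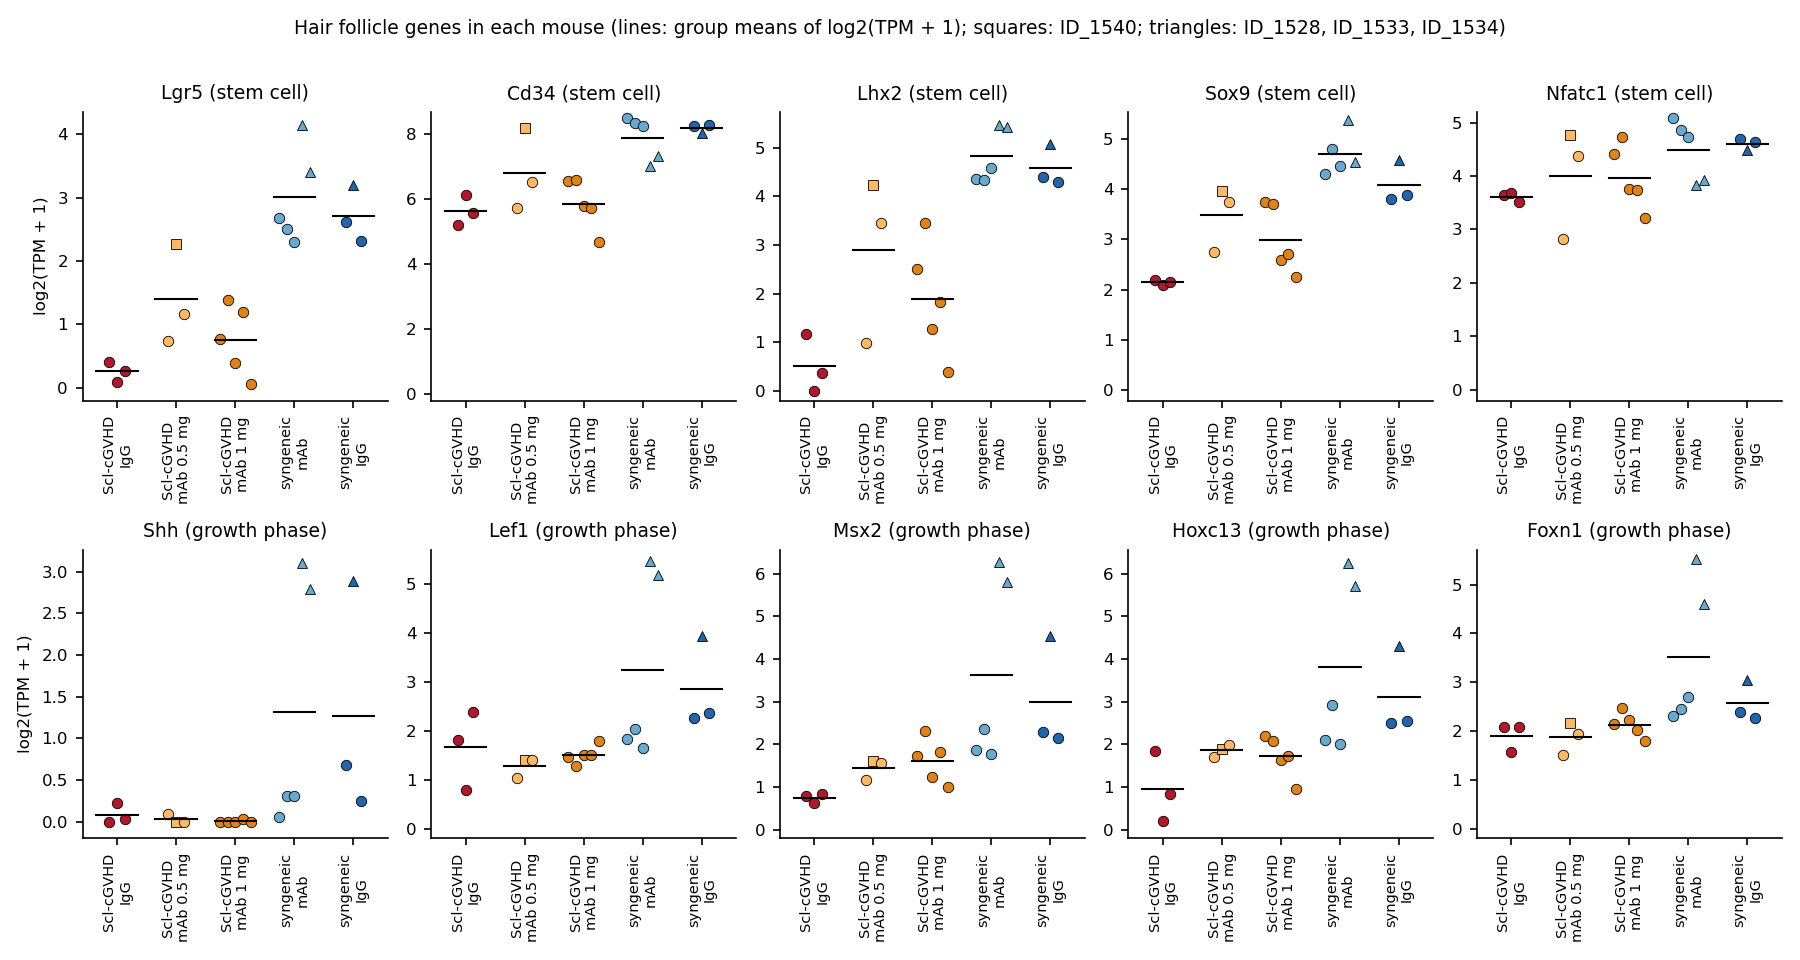
Level of each gene as log2(TPM + 1) in every mouse, with groups along the horizontal axis and lines at group means. Squares mark ID_1540 and triangles ID_1528, ID_1533 and ID_1534. Lgr5 and Lhx2 separate all 11 Scl-cGVHD mice from all 8 syngeneic mice, while the growth phase genes are high only at the triangles.

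The growth phase genes were low in nearly all mice and high in a few syngeneic ones. Shh, the hedgehog ligand of the growing matrix (chr5:28456815-28467256, minus strand), was at most 0.17 TPM in Scl-cGVHD mice and listed at 0 in 7 of the 11. Syngeneic mAb mice had 0.04, 0.24, 0.24, 7.64 and 5.95 TPM of Shh, and syngeneic IgG mice 0.6, 6.42 and 0.19 TPM. Only ID_1533, ID_1534 and ID_1528 held more than 1 TPM. Lef1, the partner of β-catenin in WNT responses (chr3:131110471-131224356, plus strand), had 2.53, 0.73 and 4.22 TPM in Scl-cGVHD IgG mice, 1.04, 1.65 and 1.66 TPM at 0.5 mg, and 1.75, 1.43, 1.84, 1.84 and 2.45 TPM at 1 mg. Its syngeneic levels were 2.58, 3.12, 2.12, 43.4 and 35.2 TPM with mAb and 3.83, 14.5 and 4.15 TPM with IgG. T cells carry Lef1 too, and the summed level of 11 T cell genes was 179, 44.7 and 124 TPM in the Scl-cGVHD IgG mice, against 21.1 to 41.6 TPM in syngeneic mice. The part of T cells in the Lef1 values was not tested.

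Msx2, a homeobox factor of the matrix (chr13:53466884-53473074, minus strand), had 0.74, 0.54 and 0.79 TPM in Scl-cGVHD IgG mice, 1.25, 2.08 and 1.95 TPM at 0.5 mg, and 2.33, 4.0, 1.34, 2.55 and 0.99 TPM at 1 mg. Syngeneic mAb mice had 2.65, 4.13, 2.45, 76.6 and 54.8 TPM of Msx2, and syngeneic IgG mice 3.89, 22.2 and 3.42 TPM. Hoxc13, the homeobox factor that drives hair keratin genes (chr15:102921103-102928814, plus strand), had 2.62, 0.15 and 0.78 TPM in Scl-cGVHD IgG mice, 2.28, 2.72 and 2.95 TPM at 0.5 mg, and 3.57, 3.22, 2.1, 2.32 and 0.95 TPM at 1 mg. With mAb the syngeneic mice had 3.28, 6.63, 3.02, 75.6 and 51.7 TPM of Hoxc13, and with IgG 4.66, 18.9 and 4.84 TPM. Foxn1, the factor lost in nude mice (chr11:78357577-78386558, minus strand), had 3.21, 1.95 and 3.23 TPM in Scl-cGVHD IgG mice, 1.85, 3.45 and 2.84 TPM at 0.5 mg, and 3.42, 4.57, 3.68, 3.05 and 2.47 TPM at 1 mg. For Foxn1 the syngeneic mAb mice had 3.95, 4.5, 5.47, 44.7 and 23.4 TPM and the syngeneic IgG mice 4.27, 7.21 and 3.82 TPM. In each of these genes the same 2 mAb mice, ID_1533 and ID_1534, were far above the other 17 mice and IgG mouse ID_1528 came next. Genes that overlap these loci stayed at or below 0.82 TPM in every mouse.

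Against syngeneic IgG mice, Scl-cGVHD IgG mice had lower levels of 4 of the 5 stem cell genes. By limma, Lhx2 fell by 4.08 on the log2 scale (SE 0.742, adjusted p = 0.00203) and Cd34 fell by 2.56 (SE 0.562, adjusted p = 0.00546). Lgr5 fell by 2.45 (SE 0.468, adjusted p = 0.00256) and Sox9 fell by 1.94 (SE 0.401, adjusted p = 0.00374). Nfatc1 averaged 11.2 ± 0.710 TPM in Scl-cGVHD IgG mice and 23.3 ± 1.77 TPM in syngeneic IgG mice (SD, n = 3 each), with a log2 difference of -0.99 that did not pass (adjusted p = 0.110). None of the 5 growth phase genes passed, with log2 differences of -0.66 (Foxn1) to -2.24 (Msx2) and adjusted p of 0.0943 (Hoxc13) to 0.429 (Foxn1). Thus 4 of 10 genes were called lower, beside 17.9% of all genes tested. The median difference was -2.45 for the stem cell genes and -1.20 for the growth phase genes, beside -0.33 over all genes. In 9 of the 10, Lef1 being the exception, the 3 Scl-cGVHD mice lay below the 3 syngeneic mice, which held for 41.0% of the genes tested. Shh is counted among the 9 and passed the level filter only through syngeneic mice.

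The 4 calls held under each other scaling and with each mouse left out in turn. With the compared groups fitted alone, Nfatc1, Hoxc13 and Msx2 were called too (adjusted p = 0.00487, 0.0392 and 0.0367). In a fit chosen after seeing the values, syngeneic mice ID_1528, ID_1533 and ID_1534 were left out. ID_1527 and ID_1529 were then the only syngeneic IgG mice. There 6 of the 9 genes still tested were called lower, beside 10.9% of all genes in that fit. Among the 6 were Hoxc13 (log2 difference -1.56, adjusted p = 0.0299) and Msx2 (-1.46, adjusted p = 0.0134). Both differences were smaller than with all mice (-2.16 and -2.24). The mice left out were those with the highest growth phase values, which also narrows the spread. The calls of growth phase genes in this fit are therefore no test of them.

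**Figure D2:**
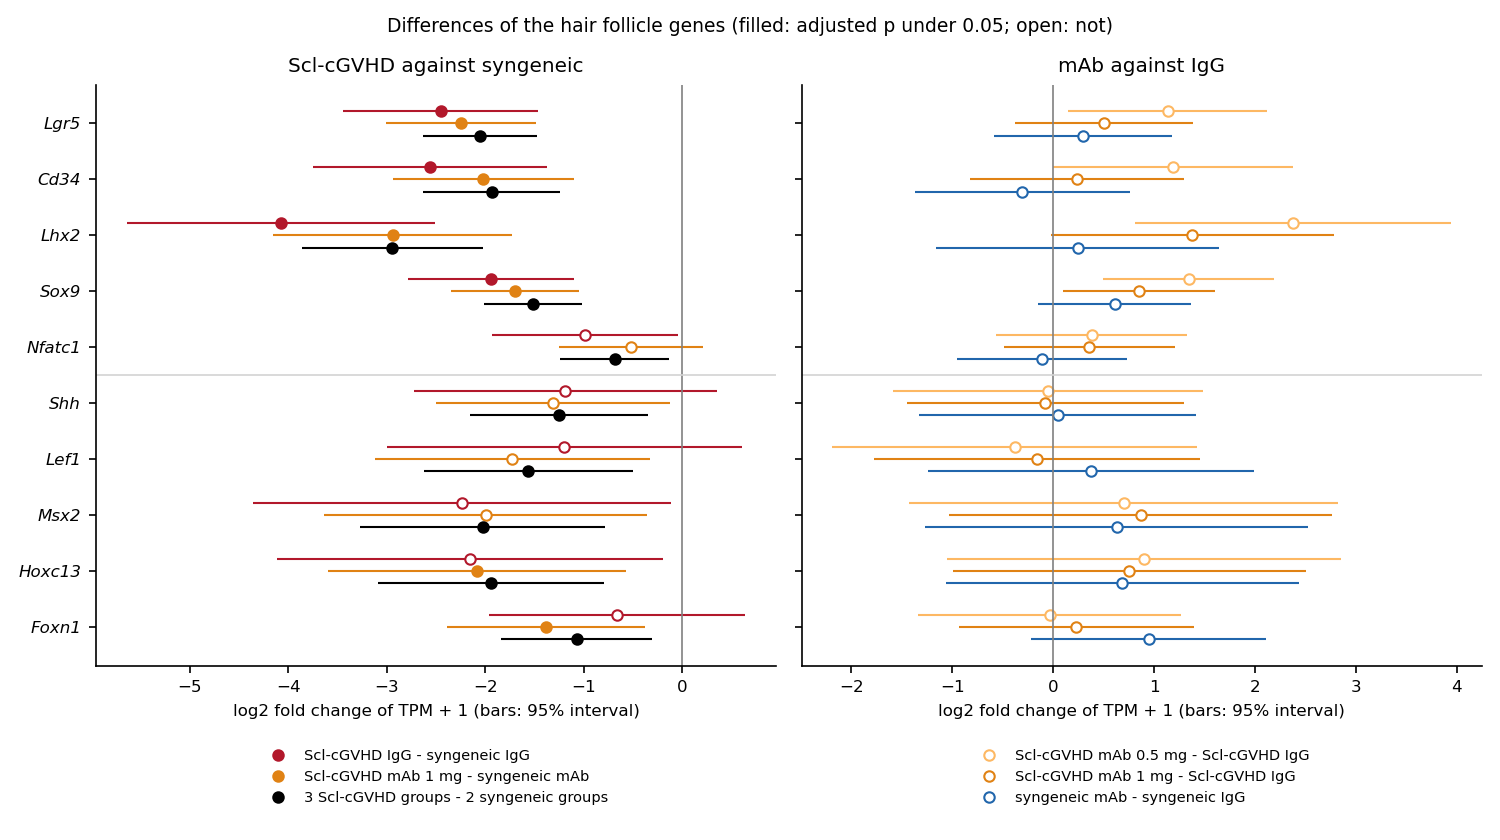
Log2 fold changes of TPM + 1 from limma with 95% intervals, for Scl-cGVHD against syngeneic mice (left) and for mAb against IgG (right). Filled points have an adjusted p under 0.05. Intervals of the growth phase genes are wide, and no point on the right is filled.

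Scl-cGVHD mice given 1 mg mAb had lower levels of 6 of the 10 genes than syngeneic mice given mAb, beside 28.3% of all genes tested. Lgr5 fell by 2.25 on the log2 scale (SE 0.363, adjusted p = 0.000368) and Lhx2 fell by 2.94 (SE 0.575, adjusted p = 0.00141). Cd34 fell by 2.02 (adjusted p = 0.00250) and Sox9 fell by 1.70 (adjusted p = 0.000866). Of the growth phase genes Hoxc13 fell by 2.08 (adjusted p = 0.0323) and Foxn1 fell by 1.38 (adjusted p = 0.0324). Nfatc1 differed by -0.52 (adjusted p = 0.239), Lef1 by -1.73 (adjusted p = 0.0506), Msx2 by -1.998 (adjusted p = 0.0537) and Shh by -1.31 (adjusted p = 0.0762). Both growth phase calls missed the threshold without ID_1533, ID_1534, ID_1544, ID_1545 or ID_1546 in turn, with adjusted p of 0.0564 to 0.0797 for Hoxc13 and 0.0537 to 0.0790 for Foxn1. Without the 1 mg mice ID_1544, ID_1545 or ID_1546 the differences stayed at -2.06, -2.09 and -1.89 for Hoxc13 and -1.41, -1.36 and -1.30 for Foxn1. Without syngeneic mAb mice ID_1533 or ID_1534 they were -1.47 and -1.60 for Hoxc13 and -0.88 and -1.11 for Foxn1. Without both of these mice they were -0.63 (adjusted p = 0.260) for Hoxc13 and -0.35 (adjusted p = 0.233) for Foxn1. The calls were also lost under median-ratio scaling (adjusted p = 0.0650 and 0.0965). Without ID_1530, ID_1531 or ID_1532, Lef1 (0.0238 to 0.0383) and Msx2 (0.0262 to 0.0449) were called as well, and Shh without ID_1530 (0.0406).

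The mean of the 3 Scl-cGVHD groups was set against the mean of the 2 syngeneic groups, a comparison that uses the mice of those above and is no separate evidence. All 5 stem cell and all 5 growth phase genes were lower, Shh by way of the filter described, beside 43.7% of all genes tested. Log2 differences ran from -0.69 (Nfatc1, adjusted p = 0.0360) to -2.95 (Lhx2, adjusted p = 7.65e-05) in the stem cell set. In the growth phase set they ran from -1.07 (Foxn1, adjusted p = 0.0200) to -2.03 (Msx2, adjusted p = 0.00919). Relative to the median of all genes, the difference of Nfatc1 was -0.36 and that of Lhx2 -2.62. Under median-ratio scaling, with the split of all calls at 49.2% decreases in place of 80.6%, Foxn1 (adjusted p = 0.0915), Lef1 (0.0503) and Nfatc1 (0.201) were no longer called. Without syngeneic IgG mouse ID_1528, 6 genes were called, while over all genes 7332 were called in either direction. Foxn1 (0.0603), Lef1 (0.0582) and Nfatc1 (0.0566) missed the threshold and Shh was no longer tested. Nfatc1 was the least firm, with adjusted p of 0.0502 to 0.0729 on leaving out any one of 10 mice (ID_1527 to ID_1532, ID_1538, ID_1539, ID_1544 and ID_1545). Without ID_1528, ID_1533 and ID_1534 together, all 9 genes still tested were called, beside 36.6% of all genes called lower in that fit. The growth phase differences shrank there, as for Msx2 (-0.84 in place of -2.03, adjusted p = 0.00471) and Lef1 (-0.59, adjusted p = 0.0320). Since the mice with the highest growth phase values were the ones left out, these calls add no support for the growth phase genes.

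In bulk skin, fewer follicle cells and less RNA per cell cannot be told apart, and other skin cells moved with the models. In the comparison of mean levels, 10 of 10 dermal fibroblast genes, 9 of 10 sebaceous gland genes and 10 of 10 adipocyte genes were lower. All 11 T cell genes and 7 of 10 macrophage and monocyte genes were higher. These counts and those below stand beside 43.7% of all genes lower and 10.5% higher, or 21.3% and 22.0% under median-ratio scaling. Under median-ratio scaling 8 fibroblast, 9 sebaceous and 10 adipocyte genes were lower and 11 T cell and 9 macrophage genes higher. The summed fibroblast level was 253 to 7742 TPM in Scl-cGVHD mice and 3972 to 11988 TPM in syngeneic mice, and no fibroblast gene was at 0 in any mouse. Sebaceous gland genes summed to 160.4 to 1648 TPM in Scl-cGVHD mice and 1199 to 2447 TPM in syngeneic mice. Basal epidermal genes, 2 higher and 1 lower of 8 (5 and 1 under median-ratio scaling), summed to 5506 to 19932 TPM in Scl-cGVHD mice and 4259.6 to 5523 TPM in syngeneic mice. The endothelial list, whose cells carry Cd34, had 1 gene higher and 2 lower of 10 (5 and 1 under median-ratio scaling), with sums of 158 to 336 TPM in Scl-cGVHD mice and 115 to 230.0 TPM in syngeneic mice. Of 12 skeletal muscle genes 4 were lower (0 under median-ratio scaling), a share not above that of all genes. Of 12 immediate early and heat shock genes 4 were higher and 2 lower. Mitochondrial transcripts made up 1.29 to 9.93% of TPM in Scl-cGVHD mice and 4.02 to 9.93% in syngeneic mice. The part of these cells and transcripts in the stem cell results was not tested.

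No gene of the 10 passed the threshold in a comparison of mAb with IgG. Against Scl-cGVHD IgG, the 0.5 mg mice had 0 of 10 genes called by limma, beside 0.055% of all genes (9 genes, with 2367 genes at an unadjusted p under 0.05). The differences of the 5 stem cell genes had a median of 1.19 beside -0.0046 over all genes, all above 0 with the 3 mice of the group included. Lhx2 differed by 2.38 (95% interval 0.811 to 3.94, adjusted p = 0.169), Sox9 by 1.34 (0.498 to 2.19, adjusted p = 0.158) and Lgr5 by 1.14 (0.149 to 2.12, adjusted p = 0.268). The 3 mice of this group were far apart: ID_1540 and ID_1541 had 17.8 and 9.9 TPM of Lhx2 and ID_1539 had 0.98 TPM, against at most 1.26 TPM with IgG. Lgr5, Sox9 and Msx2 did not overlap, each 0.5 mg mouse lying above each IgG mouse, which held for 4.25% of the genes tested. Without ID_1539, Lhx2 (3.33, adjusted p = 0.0270) and Sox9 (1.71, adjusted p = 0.0497) were called, and under median-ratio scaling Sox9 was (1.37, adjusted p = 0.0492). Without ID_1540, the mouse highest among Scl-cGVHD mice in all 5 stem cell genes, none of the 10 was called. Lhx2 then differed by 1.71 (adjusted p = 0.306), Sox9 by 1.10 (adjusted p = 0.259), Lgr5 by 0.70 (adjusted p = 0.497), Cd34 by 0.50 (adjusted p = 0.663) and Nfatc1 by -0.0076 (adjusted p = 1.0). The summed fibroblast level was 7742 TPM in ID_1540 and 368 and 787 TPM in the other 0.5 mg mice, against 300.3, 2560 and 513 TPM in Scl-cGVHD IgG mice, and its part in these differences was not tested.

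At 1 mg against Scl-cGVHD IgG, 0 of 10 genes were called by limma, beside 0.0% of all genes (1674 at an unadjusted p under 0.05). Sox9 averaged 7.74 ± 4.10 TPM with 1 mg (SD, n = 5) and 3.43 ± 0.171 TPM with IgG (SD, n = 3), and differed by 0.85 on the log2 scale (0.0973 to 1.61, adjusted p = 0.426). Lhx2 differed by 1.38 (-0.02 to 2.78, adjusted p = 0.494). Sox9 and Msx2 did not overlap at this dose either, each 1 mg mouse lying above each IgG mouse, which held for 185 of the 16350 genes tested. The median over the stem cell genes was 0.50 and over the growth phase genes 0.23, beside -0.01 over all genes. Between 1 mg and 0.5 mg, 0 of 10 genes were called, beside 0.0% of all genes (865 at an unadjusted p under 0.05), and the 5 stem cell genes differed by -0.02 (Nfatc1) to -0.999 (Lhx2). The 3 comparisons among Scl-cGVHD groups share mice.

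In syngeneic skin the mAb gave 0 calls among the 10 genes, beside 0.0% of all genes (115 at an unadjusted p under 0.05, limma). Cd34 averaged 254 ± 103 TPM with mAb (SD, n = 5) and 291 ± 27.1 TPM with IgG (SD, n = 3). Growth phase differences were 0.04 (Shh) to 0.95 (Foxn1, 95% interval -0.22 to 2.11), and without ID_1528, ID_1533 and ID_1534 the direction turned for Lef1 (-0.48), Msx2 (-0.21) and Hoxc13 (-0.18), and for Cd34 (0.0890) and Nfatc1 (0.238) too. The response to 1 mg mAb in Scl-cGVHD mice minus the response to mAb in syngeneic mice gave 0 calls among the 10 genes, beside 0.0% of all genes (582 at an unadjusted p under 0.05). Its largest value among them was 1.14 for Lhx2 (95% interval -0.85 to 3.12).

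Within each model the sets ran differently from mouse to mouse. Among the 8 syngeneic mice, ID_1533, ID_1534 and ID_1528 held ranks 1, 2 and 3 from the highest in Lgr5, Lhx2, Lef1, Msx2, Hoxc13 and Foxn1. In Cd34 and Nfatc1 the same mice held ranks 8, 7 and 6, the lowest places. Shh ranked them 1, 3 and 2, and Sox9 1, 4 and 3. The stem cell genes therefore divided in these mice, with Lgr5 and Lhx2 on the side of the growth phase genes and Cd34 and Nfatc1 on the other. Among the 11 Scl-cGVHD mice, ID_1540 was the highest in all 5 stem cell genes, while in Foxn1, Hoxc13, Msx2 and Lef1 it ranked 3, 4, 4 and 8.

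As a summary, the mean log2(TPM + 1) of each set was taken per mouse. The stem cell mean was 2.37 to 2.52 in Scl-cGVHD IgG mice, 2.61 to 4.68 at 0.5 mg and 2.11 to 3.97 at 1 mg. Syngeneic mice lay at 4.87 to 5.16 with mAb and 4.68 to 5.07 with IgG. The growth phase mean was 0.681 to 1.63 over all Scl-cGVHD mice and 1.63 to 2.03 in 5 of the 8 syngeneic mice, and reached 5.33, 4.82 and 3.75 in ID_1533, ID_1534 and ID_1528. Of the 11 Scl-cGVHD mice 10 thus lay below every syngeneic mouse in the stem cell mean, ID_1540 (4.685) lying just above the lowest syngeneic mouse (4.679). The stem cell mean minus the growth phase mean was 1.35 ± 0.316 in Scl-cGVHD IgG mice, 2.41 ± 0.886 at 0.5 mg and 1.70 ± 0.527 at 1 mg, and 1.88 ± 1.75 with mAb and 2.27 ± 0.819 with IgG in syngeneic mice (SD, n = 3, 3, 5, 5 and 3). Its lowest values were -0.16 in ID_1533 and 0.107 in ID_1534.

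**Figure D3:**
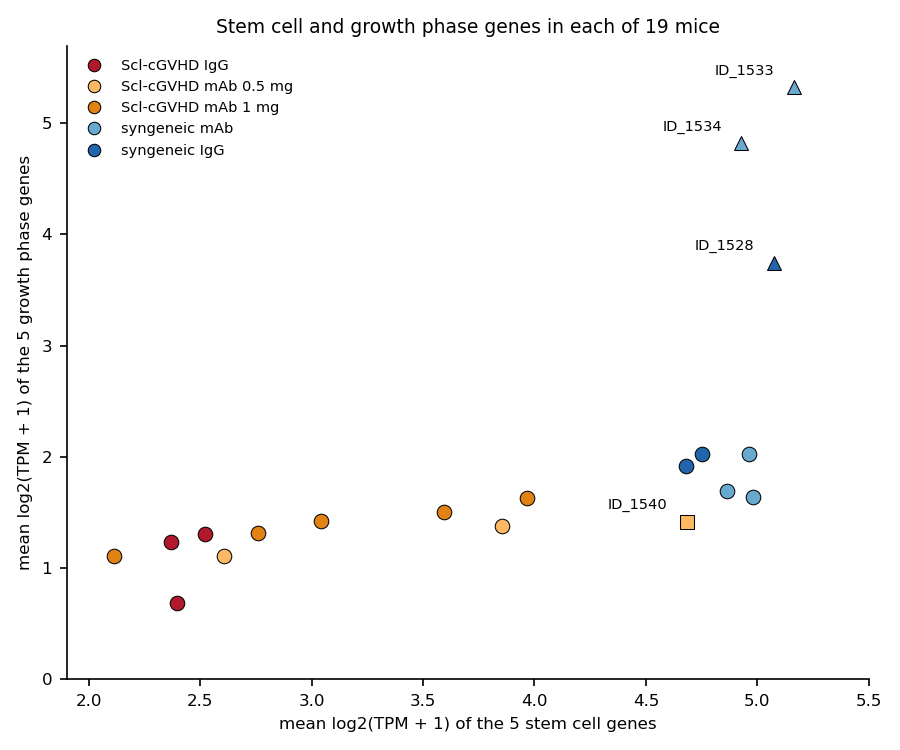
Mean log2(TPM + 1) of the 5 stem cell genes (horizontal) against that of the 5 growth phase genes (vertical), 1 point per mouse, coloured by group. ID_1533, ID_1534 and ID_1528 stand above the rest on the vertical axis, and ID_1540 stands beside the syngeneic mice on the horizontal axis only.

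The structural keratins of the hair were highest in the same 3 mice as the growth phase genes. The 7 inner root sheath keratins summed to at most 5.36 TPM in Scl-cGVHD mice, with 2 to 7 of them at 0, and ID_1537 listed all 7 at 0. In syngeneic mAb mice the sums were 2.97, 5.11, 2.9, 15433 and 10169.6 TPM, and in syngeneic IgG mice 65.5, 2302 and 317 TPM. Hair shaft keratins (12 measured) summed to 1.5 to 8.39 TPM in Scl-cGVHD mice and to 6044, 3543 and 369 TPM in ID_1533, ID_1534 and ID_1528, and to 10.9 to 72.3 TPM in the other syngeneic mice. Thus syngeneic IgG mice ID_1527 and ID_1529 held root sheath keratins without growth phase genes as high as in ID_1528. Krt71, a keratin of the inner root sheath, reached 5493 TPM in a syngeneic mAb mouse and was at most 0.14 TPM in Scl-cGVHD mice. Of the keratins tested, 6 of 7 in the inner root sheath and 7 of 12 in the shaft were under 1 TPM in every Scl-cGVHD mouse. These passed the level filter only through syngeneic mice, so the filter itself favours a lower level in Scl-cGVHD mice, and a count of calls over them is no result. Of the other 5 shaft keratins 2 were lower in the comparison of mean levels, beside 43.7% of all genes. Proliferation genes summed to 352, 338 and 253 TPM in ID_1533, ID_1534 and ID_1528 and to 66.5 to 90.8 TPM in the other syngeneic mice. Scl-cGVHD mice had 126 to 366 TPM of them, with growth phase genes low. Of 12 proliferation genes 1, Birc5 of the mitotic spindle, was higher in the comparison of mean levels (1.29, adjusted p = 0.0154). That count stands beside 10.5% of all genes higher. It was 5 under median-ratio scaling (22.0% of all genes higher), and 11 without ID_1528, ID_1533 and ID_1534 (11.3%). Those are the syngeneic mice with the highest proliferation sums, so leaving them out lowers the syngeneic level.

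**Figure D4:**
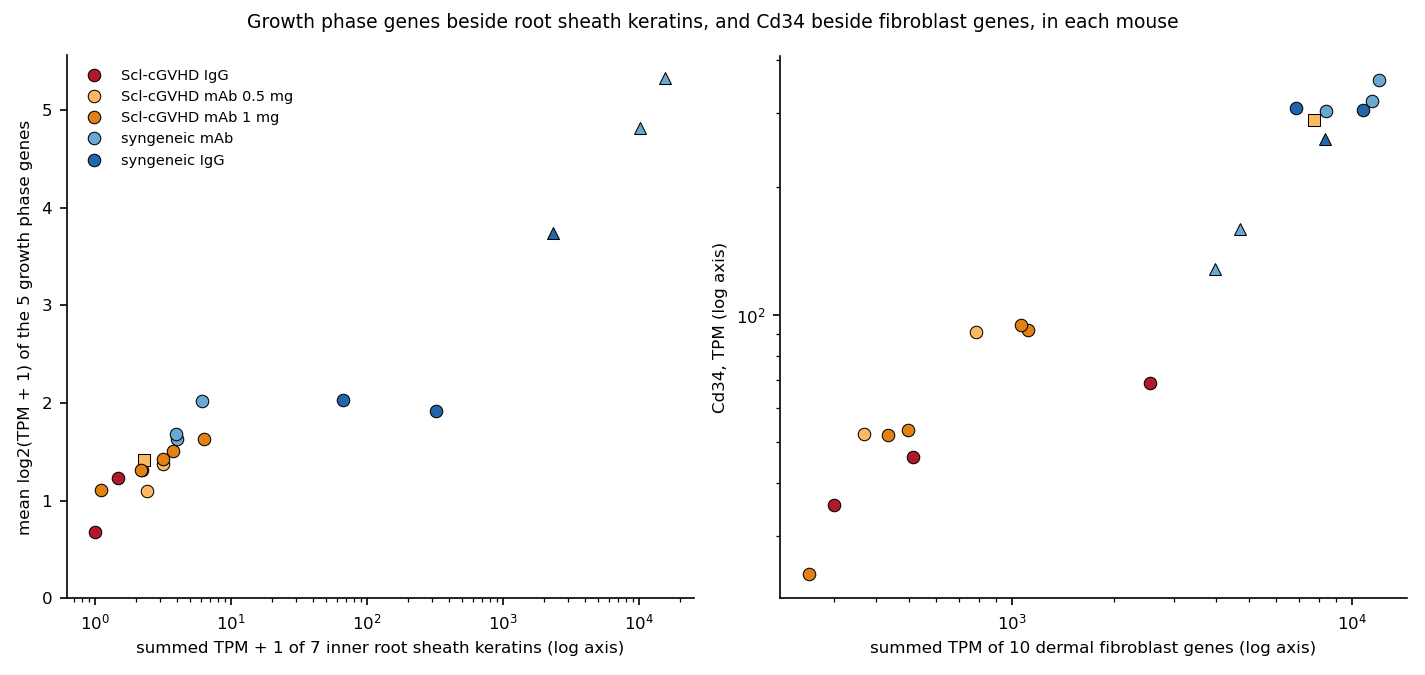
Left, mean log2(TPM + 1) of the growth phase genes against the summed TPM + 1 of 7 inner root sheath keratins on a log axis, 1 point per mouse. Right, Cd34 in TPM against the summed TPM of 10 dermal fibroblast genes, both on log axes; squares and triangles mark ID_1540 and the mice ID_1528, ID_1533 and ID_1534. Keratin sums and growth phase genes are both highest at ID_1533, ID_1534 and ID_1528, and Cd34 is highest where fibroblast genes are.

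Genes of the pathways that act on the follicle were counted from lists of textbook members, and the counts that follow compare mean levels of Scl-cGVHD and syngeneic groups. They stand beside 43.7% of all genes lower and 10.5% higher, or 21.3% and 22.0% under median-ratio scaling, and a share near these is not a result about a list. Some genes were under 1 TPM in every Scl-cGVHD mouse and passed the level filter only through syngeneic mice. They numbered 1 each in the hedgehog, WNT and matrix lists and 3 among dermal papilla and sheath genes. All 13 hedgehog pathway genes were lower (median -0.95), and 6 of 13 in the comparison of the IgG groups (17.9% of all genes). They included Gas1 (-1.31, adjusted p = 0.000173) and Boc (-1.12, adjusted p = 0.00150), which bind hedgehog ligands at the surface, and the transducer Smo (-0.95, adjusted p = 0.00220). Of 21 WNT genes tested, 17 were lower and 2 higher, with Wls, which carries WNT ligands to the surface, at -0.72 (adjusted p = 0.00631) and β-catenin (Ctnnb1) at -0.40 (adjusted p = 0.0201). The ligand Wnt4 was higher (0.40, adjusted p = 0.0225). Of the 14 BMP genes 8 were lower, a share near the 43.7% of all genes, and 1, the target Id2, was higher (0.81, adjusted p = 0.00245), while the target Id3 was lower (-0.64, adjusted p = 0.00185) and Id1 did not pass (0.35, adjusted p = 0.223). Under median-ratio scaling 10 of 13 hedgehog genes were lower, 13 WNT genes lower and 3 higher, and 5 BMP genes lower and 3 higher, beside 21.3% of all genes lower and 22.0% higher. There Ctnnb1 (-0.01, adjusted p = 0.975) and Id3 (-0.25, adjusted p = 0.234) no longer passed, while Id1 was higher (0.736, adjusted p = 0.0478). Without ID_1528, ID_1533 and ID_1534, 9 of 12 hedgehog and 11 of 20 WNT genes tested were lower, beside 36.6% of all genes in that fit. Ctnnb1 did not pass there (-0.15, adjusted p = 0.127).

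Other genes of the bulge followed the stem cell set. Of 18, 14 were lower and 3 higher (median -1.11, with 12 lower and 3 higher under median-ratio scaling), and between the IgG groups 12 were lower and 1 higher. The lists share genes, so their counts are not separate results. The bulge list shares Gas1 and Gli1 with hedgehog, Bmp6 with BMP, and Itga6 and Col17a1 with basal epidermis. The papilla and sheath list shares Wif1 and Rspo3 with WNT, and Trps1 with the matrix list. Krt15, the keratin of bulge cells, averaged 49.1 ± 54.0 TPM in Scl-cGVHD IgG mice, 892 ± 762 TPM at 0.5 mg, 310.0 ± 269.5 TPM at 1 mg, 2011 ± 619 TPM in syngeneic mAb mice and 2501 ± 184 TPM in syngeneic IgG mice (SD, n = 3, 3, 5, 5 and 3). It fell by 6.48 between the IgG groups (adjusted p = 0.00162). The integrin Itga6, which the epidermis shares, was higher in the comparison of mean levels (0.42, SE 0.126, adjusted p = 0.0113). The collagen Col17a1, also shared, differed by -0.54 with a wider spread (SE 0.241) and did not pass (adjusted p = 0.0660). Of 15 dermal papilla and sheath genes 14 were lower (11 lower and 1 higher under median-ratio scaling), such as Wif1, an inhibitor of WNT ligands (-1.14, adjusted p = 0.000449), Lepr (-1.16, adjusted p = 0.000436) and Crabp1 (-0.82, adjusted p = 0.0129, against 0.208 under median-ratio scaling). Of 15 matrix and shaft regulators tested, 8 were lower and 1 higher, and 3 and 1 under median-ratio scaling, shares near the 43.7% and 21.3% of all genes lower. Among these, S100a3 of the hair cuticle (-3.96, adjusted p = 0.0192) and trichohyalin (Tchh, -3.60, adjusted p = 0.0381, and 0.0599 under median-ratio scaling) were lower, and Hr did not pass (-0.32, adjusted p = 0.195). In syngeneic mAb mice S100a3 ran from 1.84 to 2458 TPM and Tchh from 0.94 to 3031 TPM. Their lowest values lay within those of Scl-cGVHD mice, which reached 5.61 and 5.98 TPM. Neither S100a3 nor Tchh passed between the IgG groups (adjusted p = 0.149 and 0.242, limma). Between the IgG groups 1 of 15 was lower and 1 higher.

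The genes whose levels ran most like each of the 10 over all 19 mice were picked among those with a mean of at least 5 TPM. The r of log2(TPM + 1) given here describes points that share the difference between the models and the same few high mice. Lgr5 ran with Nkd2, an inhibitor of WNT signalling (r = 0.982), Efhd1 (0.970) and the hair keratin Krt32 (0.961). Lhx2 ran with Nfib (0.984), Gsdma3 (0.983) and Foxc1 (0.982), and Sox9 with the WNT receptor Fzd1 (0.971), Foxc1 (0.971) and Gsdma3 (0.968). Nfatc1 ran with Mtus1 (0.973), Arhgap10 (0.961) and Srgap2 (0.957). For Cd34 the nearest were Clec3b (0.991), Lum (0.986) and Dpt (0.986), of which Lum and Dpt are matrix genes on the dermal fibroblast list. Shh was nearest to the hair keratin Krt35 (0.977), Lyg2 (0.973) and Crym (0.965). Lef1 was nearest to Crym (0.962), the keratin-associated gene Krtap17-1 (0.962) and the root sheath keratin Krt72 (0.961), and Msx2 to Crym (0.965), the root sheath keratin Krt28 (0.962) and Krtap17-1 (0.961). Hoxc13 was nearest to the ligand Wnt11 (0.970), Them4 (0.953) and Gnmt (0.952), and Foxn1 to Gnmt (0.954), Dok4 (0.952) and Krtap19-1 (0.952). The mean of the 5 growth phase genes ran with Crym (0.980), Gnmt (0.978), Krtap17-1 (0.976), Krt28 (0.975) and Lyg2 (0.973).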

How the data were processed

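Skin mRNA of 19 mice was measured. The authors made stranded libraries, trimmed the reads with Trimmomatic, used STAR 2.5.2b for alignment to GRCm38 with the Ensembl 88 annotation, and quantified genes in RSEM 1.2.31, per the submitters' processing notes and the study's methods. The deposited values are TPM per gene, which keep no depth, so that precision was taken from the spread between mice. Read pairs came from a deposited alignment summary whose libraries carry group names without mouse numbers, so only the range was used.

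Log2(TPM + 1) values of the 16350 genes reaching 1 TPM in 3 or more mice were fitted with limma 3.58.1 in R 4.3.3 (variance trend, robust prior, 5 groups in one fit). The p values are two-sided and adjusted by Benjamini-Hochberg over all genes of a comparison. The procedure was tested on simulated data. Nothing in the labels says that mice were matched across groups.

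The 10 genes, the lists and the comparisons were chosen with earlier results of these data known. Named genes are all 10 members, the 3 genes with the highest mean TPM of each pathway list, and, among tested genes averaging 5 TPM or more over the mice, the 3 with the highest r to each member and the 5 to the growth phase mean, passing over numbered gene models and antigen receptor segments. Alternatives were median-ratio factors, quantile normalization, rescaling without hair keratins, muscle and mitochondrial transcripts, 0.1 as pseudocount, all genes above 0, a minimum of 5 TPM, compared groups alone, array weights, medians in place of means for the set summaries, ID_1533 and ID_1534 left out, each mouse left out in turn, and, chosen after seeing the values, ID_1528, ID_1533 and ID_1534 left out. Edges of loci count the first base as 1. Of the 13 hair shaft keratins listed, 12 were measured.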

Additional observations from a re-analysis of the deposited data

Results flagged for a closer look

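Shh in Scl-cGVHD mice given 1 mg mAb had 0.02 TPM in mouse ID_1545 and was listed at 0 in the other 4 mice, which put that mouse far from the others. Of 20 groups of this size examined 1 stood out in this way. With the other 4 mice at 0, any value above 0 would have stood out, so the flag carries no weight. A chance rate of about 1 in 20 does not apply to such tied values. A value of 0.02 TPM is at the lower edge of what the table resolves, since it is given with 2 decimals.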

How the results depend on the processing

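The number of genes called lower in Scl-cGVHD IgG against syngeneic IgG mice was 4, and 7 with the compared groups alone. Against Scl-cGVHD IgG, the number called higher at 0.5 mg was 0, 1 with median-ratio factors, and 0 to 2 with each mouse left out in turn (2 without ID_1539). In the comparison of mean levels the number called lower was 10, and 6 (without ID_1528) to 10 with a mouse left out. With a pseudocount of 0.1, the stem cell mean minus the growth phase mean was 1.69 in Scl-cGVHD IgG mice and 2.27 at 1 mg, in place of 1.35 and 1.70. Shh gave no value where it fell below the level filter. No called gene among the 10 changed direction under any alternative run. Over all genes, the calls between the IgG groups (1118 higher and 2925 lower) came to 2022 to 3799 when a mouse was left out and 2697 to 5746 under the other alternatives. At 0.5 mg against IgG they numbered 9, with 0 to 816 and 0 to 102, and at 1 mg against IgG 0, with 0 to 667 and 0 to 3, the 816 and the 667 both without Scl-cGVHD IgG mouse ID_1535. No paired analysis was possible because the mouse numbers are not shared between groups. The 3 to 5 mice per group, and the lack of depth for single mice, limit what low genes such as Shh can show.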
